A study of Mus musculus with 38 samples.

Results

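The 9 genes Cxcl13, Cxcr5, Ccl19, Ccl21a, Ccr7, Lta, Ltb, Ltbr and Tnfsf13b were followed in the RNA of mouse omental tumors. They were chosen by symbol, through the Ensembl gene ID of each row, from the 55487 genes of the tumor count table. The 9 symbols matched 11 rows, because Ccl19 and Ccl21a each have a further copy on an unplaced scaffold, and the rows on the chromosomes were used. All 9 genes were among the 16241 that passed the filter on low counts in tumors.

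These genes encode the signals that gather lymphocytes into follicles and aggregates. CXCL13, made by stromal cells and some myeloid cells, draws B cells and follicular helper T cells through its receptor CXCR5. CCL19 and CCL21 draw T cells and mature dendritic cells through CCR7. Lymphotoxin alpha and lymphotoxin beta, made mainly by lymphocytes, form a complex on the cell surface that signals through the lymphotoxin beta receptor on stromal cells, by way of the noncanonical NF-kB proteins p52 and RelB. BAFF, the product of Tnfsf13b, keeps B cells alive. The omentum, a fold of fatty tissue in the abdomen, holds lymphoid aggregates called milky spots, whose B cells depend on CXCL13.

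The cells of 2 models of high-grade serous ovarian cancer, 60577 and HGS2, were injected into the peritoneal cavity of wild-type female mice aged 8 to 9 weeks, FVB for 60577 and C57BL/6J for HGS2. Each model is 1 cancer cell line in 1 host strain. Treated mice received 3 weekly doses of carboplatin (20 mg/kg) with paclitaxel (10 mg/kg), beginning 21 days (60577) or 49 days (HGS2) after injection. Controls received vehicle. Time points TP1, TP2 and TP3 are omental tumors taken 1, 7 and 21 days after dosing ended, on days 36, 42 and 56 from injection in 60577 and on days 64, 70 and 84 in HGS2. The 60577 tumors were 3 controls and 3 treated at TP1, 3 controls and 4 treated at TP2, and 4 treated at TP3. The HGS2 tumors were 3 controls and 3 treated at TP1, 4 controls and 3 treated at TP2, and 4 treated at TP3. TP3 had no controls, so TP3 tumors were set against TP2 controls, where treatment and time cannot be told apart. Cultures of each cell line, 2 per line, served as a reference without host cells.

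Counts summed to between 17839635 and 49299442 per tumor and between 31633121 and 42461995 per culture. Levels are given as counts per 1000000 counts (CPM) after TMM scaling, or CPM per kilobase of exon where genes are compared with each other. HGS2 TP3 treated replicate 1 is absent from the study's own tables and was kept out of the fits, but its levels are given. In HGS2 TP1 control replicate 3, TP2 control replicate 2 and TP3 treated replicate 2, 6 pancreas genes summed to 61300 CPM or more, against at most 1550 CPM in the other tumors. The part of this in the results below was not tested.

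The promoters of Cxcl13 and Ltb are shown because both hold a letter match to a degenerate NF-kB motif of 10 bases. Both sequences are from RefSeq (GRCm38.p6, plus strand) and end at the base before the RefSeq start site, with the match in capitals. The gene positions given below are from GENCODE, whose starts differ. The GENCODE start of Ltb, 35194439, lies inside the printed stretch, and that of Cxcl13, 95956951, lies after it. Distances are counted from the RefSeq start.
Cxcl13, chr5:95956789-95956938: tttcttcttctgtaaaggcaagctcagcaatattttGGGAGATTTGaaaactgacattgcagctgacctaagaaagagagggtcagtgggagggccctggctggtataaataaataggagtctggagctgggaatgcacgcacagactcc
Ltb, chr17:35194357-35194506: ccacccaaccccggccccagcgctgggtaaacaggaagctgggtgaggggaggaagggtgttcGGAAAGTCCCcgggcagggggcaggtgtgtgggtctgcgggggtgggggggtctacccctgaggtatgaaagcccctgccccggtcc
The Cxcl13 match lies on the plus strand, 114 to 105 bases before the start site, and the Ltb match on the opposite strand, 87 to 78 bases before it. The motif was written wide enough to take in both of these sequences, so that they match is by choice. Searched on both strands, it occurs in 457 of 32851 promoter windows of 300 bases (1.39%). Windows were found for 7 of the 9 genes, and those of Ccl19, Ccl21a, Lta, Ltbr and Tnfsf13b held no match. A match is a match of letters and says nothing of binding in these tumors.

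In 60577, most of the 9 genes were higher in treated than in control tumors by TP2, among them the receptor of B cells for CXCL13, both lymphotoxin genes and the gene for BAFF. A gene was called at an adjusted p below 0.05 and a log2 fold change beyond 1 (two-sided quasi-likelihood test of edgeR, adjusted after Benjamini and Hochberg over every gene tested). At TP1, 3 of the 9 genes were called higher in treated than in control tumors (Ccl19, Lta and Ltb), where 9.65% of all genes tested were called higher. These TP1 calls were not steady, as limma-voom called 1 of the 9 and DESeq2 4. At TP2, 6 of the 9 were called higher (Cxcr5, Ccl19, Ccr7, Lta, Ltb and Tnfsf13b), against a background of 14.8%. In TP3 tumors against TP2 controls, 6 of the 9 were again called higher, with Cxcl13 in the place of Ccr7, against 14.2%. The median log2 fold change of the 9 genes was 0.65, 1.38 and 3.11 in these comparisons, and that of all genes was 0.00, 0.03 and 0.00. None of the 9 was called lower. Between treated tumors, 3 of the 9 were called higher at TP2 than at TP1 (Cxcr5, Ccr7 and Lta, background 3.58%) and 1 was higher at TP3 than at TP2 (Cxcl13, background 3.47%). Between the controls of TP2 and TP1, 0 of 16241 genes were called (0%), and none of the 9 was called by limma-voom or DESeq2. None of the 9 had an unadjusted p below 0.05 there, against 9.24% of all genes.

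**Figure D1:**
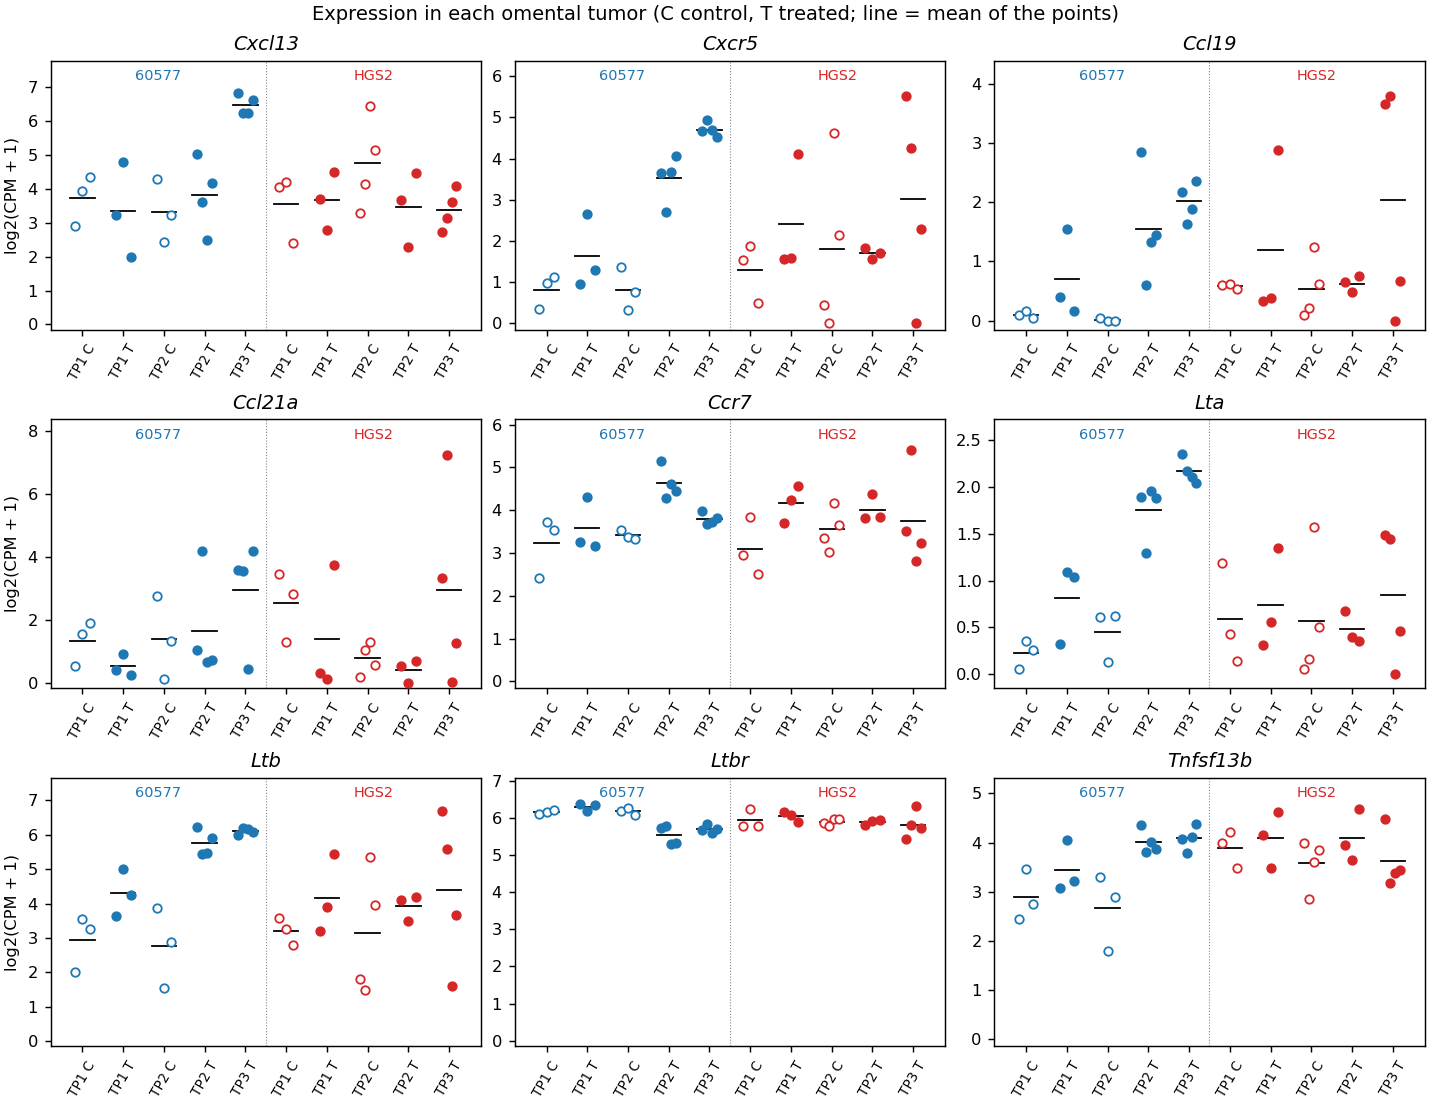
Expression of the 9 genes in each omental tumor, as log2(CPM + 1), by model, time point and treatment (C control, open points; T treated, filled points; line, mean of the points, 3 or 4 tumors a group). In 60577, all 4 TP3 tumors lie above every other 60577 tumor for Cxcl13, and Cxcr5, Lta and Ltb are higher in every TP2 and TP3 treated tumor than in any control; in HGS2, single tumors carry the high values. HGS2 TP3 treated includes replicate 1.

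Cxcl13 (chr5:95956951-95961068) was the gene that rose last. Its level was 6.41, 14.3 and 19.5 CPM in 60577 TP1 controls and 8.43, 26.8 and 2.94 CPM in TP1 treated tumors. TP2 controls stood at 18.5, 4.41 and 8.30 CPM and TP2 treated tumors at 31.7, 11.1, 4.66 and 17.2 CPM. At both times the groups overlapped. At TP3 the 4 tumors stood at 112, 74.7, 73.7 and 97.2 CPM, each above every other 60577 tumor. The mean was 89.5 ± 18.7 CPM (SD, n = 4) at TP3, 16.1 ± 11.6 CPM (n = 4) in TP2 treated tumors and 10.4 ± 7.28 CPM (n = 3) in TP2 controls. The log2 fold change was -0.07 (SE 0.72, adjusted p = 0.955, edgeR) at TP1, 0.63 (SE 0.68, adjusted p = 0.439, edgeR) at TP2 and 3.11 (SE 0.75, adjusted p = 0.00271, edgeR) at TP3. From TP2 to TP3 treated tumors Cxcl13 rose by 2.48 (SE 0.64, adjusted p = 0.0115, edgeR).

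Cxcr5 (chr9:44511787-44561877), the receptor for CXCL13, was already higher at TP2. Controls held 0.277, 0.984 and 1.17 CPM at TP1 and 1.57, 0.248 and 0.699 CPM at TP2. TP1 treated tumors held 0.937, 5.26 and 1.47 CPM, which overlapped the controls. TP2 treated tumors held 11.6, 5.46, 11.8 and 15.6 CPM and TP3 tumors 24.4, 29.4, 25 and 21.8 CPM, each above every control. The TP1 log2 fold change of Cxcr5 was 1.65 (SE 0.67, adjusted p = 0.0707, edgeR), 3.71 at TP2 (SE 0.66, adjusted p = 0.000313) and 4.91 at TP3 (SE 0.69, adjusted p = 3.78e-05). Cxcr5 rose by 2.11 from TP1 to TP2 treated tumors (SE 0.59, adjusted p = 0.0257, edgeR). This call was lost without TP1 treated replicate 1 (1.71, adjusted p = 0.122, edgeR) or 3, or TP2 treated replicate 3 or 4. From TP2 to TP3 the difference was 1.2 (SE 0.5, adjusted p = 0.0741, edgeR). Exons of Cxcr5 overlap those of Bcl9l on the opposite strand. In the 4 cultures Bcl9l stood at 159 to 337 CPM while Cxcr5 had 0 counts in each.

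Cxcr5 moved with markers of B cells. The summed level of 9 B cell markers was 6.10 to 33.1 CPM in 60577 TP1 controls, 6.12 to 31.7 in TP2 controls, 33 to 110 in TP1 treated, 115 to 328 in TP2 treated and 381 to 499 in TP3 tumors. All 9 markers were called higher at TP2 and at TP3, with a median log2 fold change of 3.81 and 4.54. Per 100 CPM of these markers, Cxcr5 made up 3.99 ± 0.888 CPM (SD, n = 3) in TP1 controls, 4.07 ± 0.879 (n = 3) in TP2 controls, 4.40 ± 0.468 (n = 4) in TP2 treated and 5.79 ± 0.472 (n = 4) in TP3 tumors. The level of Cxcr5 thus changed far more than its ratio to the markers. In bulk tissue, more cells of a type and more RNA per cell cannot be told apart. Cxcl13 did not keep such a ratio. Per 100 CPM of B cell markers it stood at 38.0 to 72.1 CPM in TP2 controls, 1.49 to 11.8 in TP2 treated and 15 to 29.5 in TP3 tumors.

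Ccl19 (chr4:42754525-42756577), a ligand of CCR7, was close to absent from 60577 controls and present in nearly all treated tumors. Controls had 2, 3.37 and 1 expected counts at TP1 and 1, 0 and 0 at TP2. TP1 treated tumors stood at 0.312, 1.94 and 0.116 CPM and TP2 treated tumors at 6.19, 0.509, 1.52 and 1.72 CPM. TP3 tumors stood at 3.52, 2.09, 2.71 and 4.16 CPM, all above every control, as were the TP2 treated tumors. With 261 rounded counts in TP2 treated tumors and 1 in TP2 controls, the ratio of CPM before TMM scaling was 224, with an exact 95% interval of 39.8 to 8870 that covers counting error only. At TP3 the ratio to the same controls was 301 (53.6 to 11900). The adjusted p (edgeR) was 0.0350 at TP1, 0.000490 at TP2 and 0.000293 at TP3, and the log2 fold change at TP1 was 3.40 (SE 1.16). The TP1 value was 1.58 without treated replicate 2 (adjusted p = 0.354, edgeR), the tumor with 1.94 CPM.

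Ccl21a (chr4:42772860-42773993), the neighbor of Ccl19, is 1 of several genes for CCL21, the other ligand of CCR7. CCL21 is made in lymph nodes by high endothelial venules and stromal cells, and elsewhere by lymphatic vessels. With all tumors in the fit, edgeR called Ccl21a in no comparison of 60577 groups. Controls ranged from 0.0931 to 5.82 CPM and TP1 treated tumors from 0.194 to 0.918 CPM. TP2 treated tumors stood at 1.07, 17.5, 0.589 and 0.680 CPM, and TP3 tumors at 11.2, 10.8, 0.355 and 17.6 CPM. One TP2 tumor was thus high, and one TP3 tumor low, within groups that otherwise held together. The TP1 log2 fold change of Ccl21a was -1.81 (SE 1.56, adjusted p = 0.403, edgeR), 0.99 at TP2 (SE 1.29, adjusted p = 0.523) and 2.02 at TP3 (SE 1.33, adjusted p = 0.218). Without TP2 treated replicate 2, the tumor with 17.5 CPM, the TP2 value turned to -1.65 (adjusted p = 0.245, edgeR). From TP1 to TP2 treated tumors Ccl21a differed by 3.33 (SE 1.52, unadjusted p = 0.0438, adjusted p = 0.123, edgeR), which DESeq2 called (adjusted p = 0.0498), and by 0.69 without the same tumor (adjusted p = 0.713, edgeR).

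Both chemokine genes have related copies on chromosome 4 that can share reads with them. These held 22.6% to 58.8% of the 31-base stretches of Ccl19 and 36.9% to 80.6% of those of Ccl21a. Over all libraries the copies of Ccl19 held 1.29% of the family's counts and those of Ccl21a 7.91%. The copies of Ccl21a held more than 10% of its family's counts in 13 libraries, all of them HGS2 tumors. In 60577 tumors they held at most 9.17%. In HGS2 TP1 control replicate 1 they held 43.8%, in TP3 treated replicate 3 83.3% and in TP2 treated replicate 2 100%, the last at 4 counts. The Ccl21a levels given here, and the main tests within and between the models, leave out the counts of the copies. Summing the copies gave log2 fold changes of 1.02 for Ccl21a and 7.35 for Ccl19 at 60577 TP2, with adjusted p = 0.51 and 0.000446 (edgeR).

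Ccr7 (chr11:99144196-99155077), the receptor for both ligands, peaked at TP2. TP2 controls stood at 10.7, 9.41 and 9.04 CPM, TP2 treated tumors at 34.7, 18.6, 23.3 and 20.9 CPM, and TP3 tumors at 14.9, 11.7, 12.3 and 13.2 CPM. Every TP2 treated tumor was above every control. The TP3 tumors lay between the TP2 treated tumors and the TP2 controls, but overlapped the TP1 controls. TP1 controls held 4.33, 12.3 and 10.6 CPM and TP1 treated tumors 8.49, 18.9 and 7.97 CPM. The log2 fold change was 0.38 at TP1 (SE 0.36, adjusted p = 0.444, edgeR), 1.32 at TP2 (SE 0.35, adjusted p = 0.00456) and 0.43 at TP3 (SE 0.34, adjusted p = 0.299). From TP1 to TP2 treated tumors Ccr7 rose by 1.04 (SE 0.34, adjusted p = 0.0450, edgeR), a call lost under 12 of 17 omissions of 1 tumor, with adjusted p up to 0.190. From TP2 to TP3 treated tumors it fell by 0.89 (SE 0.31, adjusted p = 0.0382, edgeR), less than the fold needed for a call. The ratio of Ccr7 to T cell markers was lowest at TP3, when 7 T cell markers summed to 139 to 160 CPM, against 97.6 to 169 CPM in TP2 treated tumors and 5.06 to 27.3 CPM in TP2 controls. Per 100 CPM of T cell markers it stood at 39.0 to 186 CPM in TP2 controls, 18.3 to 23.9 in TP2 treated and 7.79 to 10.8 in TP3 tumors. The cancer cells of this model express Ccr7 themselves in culture, as given below.

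Lta (chr17:35203165-35205351) and Ltb (chr17:35194439-35196320), which lie close together in the same locus, rose together. Lta encodes the soluble lymphotoxin subunit and Ltb the subunit that anchors the complex in the membrane. Lta was scarce, with 0.0346, 0.275 and 0.196 CPM in TP1 controls and 0.523, 0.0931 and 0.534 CPM in TP2 controls. TP1 treated tumors stood at 0.250, 1.13 and 1.05 CPM, TP2 treated tumors at 2.72, 1.45, 2.90 and 2.68 CPM and TP3 tumors at 4.13, 3.51, 3.32 and 3.13 CPM. The TP2 and TP3 values were all above the controls, and the TP3 values all above those of TP2. The log2 fold change of Lta was 2.25 at TP1 (SE 0.67, adjusted p = 0.0180, edgeR), 2.67 at TP2 (SE 0.56, adjusted p = 0.00110) and 3.22 at TP3 (SE 0.57, adjusted p = 0.000252). Without TP1 control replicate 1 the TP1 value was 1.77 (adjusted p = 0.0778, edgeR). From TP1 to TP2 treated tumors Lta rose by 1.59 (SE 0.52, adjusted p = 0.0448, edgeR), a call lost under 10 of 17 omissions. From TP2 to TP3 it differed by 0.55 (SE 0.44, adjusted p = 0.329, edgeR).

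Ltb was the more abundant subunit. It stood at 3.01, 10.7 and 8.51 CPM in TP1 controls and at 13.5, 1.93 and 6.45 CPM in TP2 controls. TP1 treated tumors held 11.5, 31.2 and 18.1 CPM, each above every TP1 control. TP2 treated tumors held 74.2, 42.2, 43.1 and 59.0 CPM and TP3 tumors 63.2, 72.3, 71.0 and 66.8 CPM, which overlapped each other and no control. For Ltb the log2 fold change was 1.46 at TP1 (SE 0.54, adjusted p = 0.0494, edgeR), 2.90 at TP2 (SE 0.55, adjusted p = 0.000466) and 3.24 at TP3 (SE 0.55, adjusted p = 0.000195). Without TP1 treated replicate 2, the highest of its group, the TP1 value was 1.01 (adjusted p = 0.207, edgeR). The ratio of Ltb to the T cell markers was similar across the 60577 groups. Per 100 CPM of them Ltb stood at 52.5 ± 6.49 CPM (SD, n = 3) in TP1 controls, 45.0 ± 4.70 (n = 3) in TP1 treated, 45.8 ± 6.69 (n = 3) in TP2 controls, 45.4 ± 4.70 (n = 4) in TP2 treated and 46.6 ± 4.06 (n = 4) in TP3 tumors. The ratio was lower and more scattered in HGS2, with group means of 19.8 to 32.5 CPM and single tumors from 12.6 to 51.6 CPM. These HGS2 ratios leave out TP3 treated replicate 1, which held 103 CPM of Ltb at a T cell marker sum of 261 CPM. Against B cell markers, Ltb in 60577 went from 34.6 ± 7.08 CPM per 100 CPM (n = 3) in TP2 controls to 15.8 ± 1.00 (n = 4) in TP3 tumors.

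Ltbr (chr6:125306571-125313885), the receptor for the lymphotoxin complex, went the other way. TP1 controls stood at 67.5, 70.1 and 73.7 CPM and TP1 treated tumors at 82.3, 71.2 and 80.4 CPM. TP2 controls held 72.0, 76.0 and 66.4 CPM, TP2 treated tumors 52.2, 53.9, 38.4 and 38.9 CPM, and TP3 tumors 50.5, 56.6, 47.2 and 50.6 CPM. All 8 treated tumors of TP2 and TP3 were below every control. Ltbr fell by 0.65 at TP2 (SE 0.12, adjusted p = 0.000487, edgeR) and by 0.47 at TP3 (SE 0.12, adjusted p = 0.00480), both short of the fold needed for a call. At TP1 the log2 fold change was 0.16 (SE 0.13, adjusted p = 0.392, edgeR). From TP1 to TP2 treated tumors Ltbr fell by 0.78 (SE 0.12, adjusted p = 0.00275, edgeR). The 5 epithelial markers of the cancer cells moved with it at TP2, from 1820 to 2830 CPM in controls to 289 to 565 CPM in treated tumors. At TP1 they were also lower, at 298 to 603 CPM against 1530 to 1910 CPM, where Ltbr was not. The part of the epithelial cells in the level of Ltbr was not tested.

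Tnfsf13b (chr8:10006467-10039072), the gene for BAFF, was higher at TP2 and TP3. TP2 controls stood at 8.77, 2.48 and 6.37 CPM, TP2 treated tumors at 19.6, 13.0, 15.1 and 13.7 CPM and TP3 tumors at 15.7, 12.8, 16.4 and 19.7 CPM. Neither treated group overlapped these controls. TP1 controls held 4.43, 9.95 and 5.74 CPM and TP1 treated tumors 7.43, 15.6 and 8.32 CPM. For Tnfsf13b the log2 fold change was 0.65 at TP1 (SE 0.39, adjusted p = 0.223, edgeR), 1.38 at TP2 (SE 0.38, adjusted p = 0.00637) and 1.47 at TP3 (SE 0.38, adjusted p = 0.00464). The rise was smaller than that of the B cell markers. Per 100 CPM of these markers Tnfsf13b stood at 27.7 to 40.6 CPM in TP2 controls, 4.17 to 11.4 in TP2 treated and 2.56 to 4.88 in TP3 tumors.

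**Figure D2:**
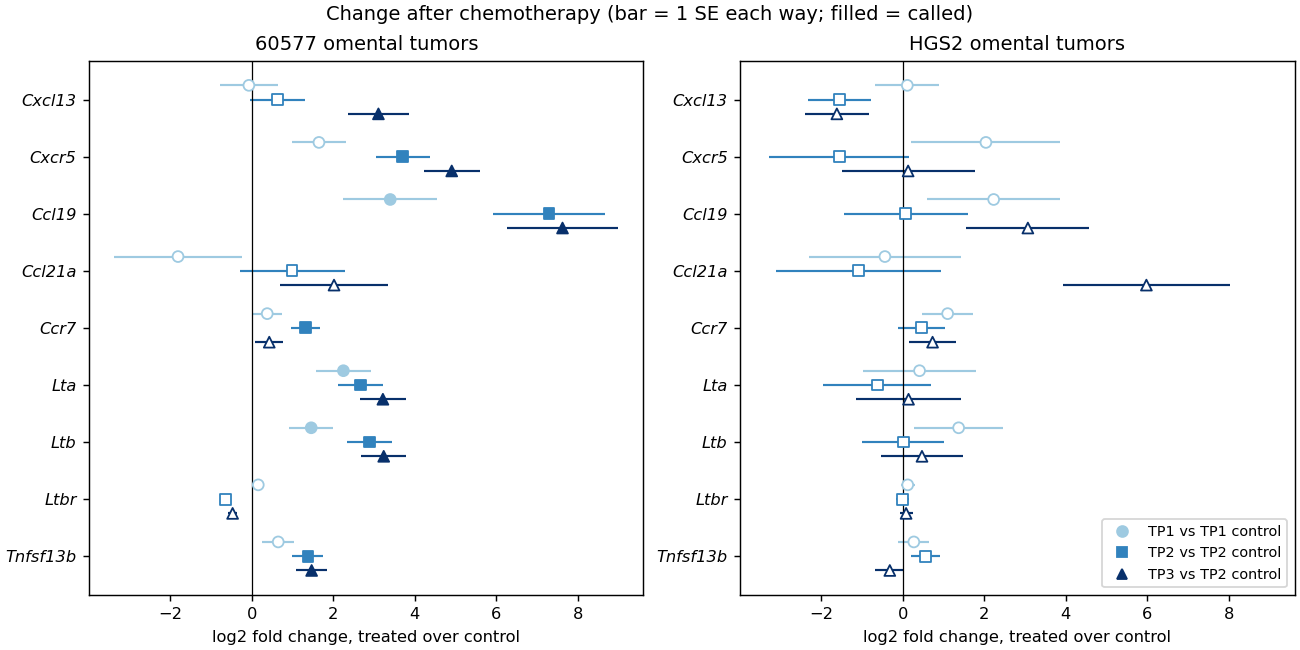
Log2 fold change of each gene in treated over control tumors (edgeR; bar, 1 SE each way; filled, called at an adjusted p below 0.05 and a log2 fold change beyond 1), for TP1 and TP2 against the controls of the same time and for TP3 against TP2 controls. In 60577, 3, 6 and 6 genes are called and all of them are higher; in HGS2 none is called, and the bars are narrowest for Ltbr and Tnfsf13b.

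Measured per kilobase of exon, with all annotated exons of a gene merged, the order of the genes changed between controls and late tumors of 60577. In TP2 controls the mean level of Ltbr was highest, at 30.4 CPM per kilobase, before Cxcl13 at 9.05, Ccr7 at 4.91, Ltb at 4.81 and Ccl21a at 2.85. The values of Cxcl13, Ccr7, Ltb and Ccl21a overlapped between these controls. Tnfsf13b stood at 0.855, Lta at 0.277, Cxcr5 at 0.252 and Ccl19 at 0.0126 CPM per kilobase. In TP3 tumors Cxcl13 was highest, at 77.8 ± 16.2 CPM per kilobase (SD, n = 4), then Ltb at 45.1 ± 2.74 and Ltbr at 21.8 ± 1.66. Cxcl13 and Ltb were each apart from the next gene by more than the spread. Ccl21a, at 11.5 ± 8.21 CPM per kilobase, could not be told from Cxcr5 at 7.55 ± 0.952 or Ccr7 at 6.59 ± 0.71. Only its highest tumor reached the lowest of Ltbr. Ccl19 stood at 3.60 ± 1.05 CPM per kilobase, and Lta at 2.55 ± 0.313 and Tnfsf13b at 2.35 ± 0.413 differed by less than the spread.

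The same 9 genes showed no called change in HGS2. In all 6 comparisons of HGS2 groups 0 of 16241 genes were called (0%), so 0 of the 9 was. At an unadjusted p below 0.05, 1 of the 9 (Ccl21a) passed in TP3 tumors against TP2 controls, where 2.5% of all genes did. In TP3 against TP2 treated tumors 2 of the 9 passed (Ccl21a and Tnfsf13b), against 10.4% of all genes. None of the 9 passed in the other 4 comparisons, against 0.936% to 7.59% of all genes. limma-voom called none, and DESeq2 called Ccl21a from TP2 to TP3 treated tumors, with a log2 fold change of 7.12 and adjusted p = 0.0426. At TP2 the edgeR log2 fold change of treated over control was -1.56 for Cxcl13 (SE 0.77, adjusted p = 0.666), -1.56 for Cxcr5 (SE 1.72, adjusted p = 0.823) and 0.01 for Ltb (SE 1.01, adjusted p = 0.999). The SE for Ltb and Cxcr5 was thus larger than in 60577, where it was 0.55 and 0.66.

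Single HGS2 tumors carried the high values, in controls as well as treated tumors. TP2 control replicate 3 had the highest Cxcl13 of the model, 85.4 CPM, against 8.69, 16.6 and 34.6 CPM in the other TP2 controls. It also held 23.4 CPM of Cxcr5, 40.0 CPM of Ltb and 516 CPM of B cell markers. TP1 treated replicate 3 held 16.3 CPM of Cxcr5, 42.3 CPM of Ltb, 6.39 CPM of Ccl19 and 12.4 CPM of Ccl21a. The other TP1 treated tumors were at or below 2.01, 13.9, 0.301 and 0.265 CPM of these genes. TP3 treated tumors were the most uneven, with Cxcr5 at 44.6, 18, 0 and 3.89 CPM and Ltb at 103, 46.8, 2.03 and 11.6 CPM. The first of these is the tumor kept out of the fits, which also had the most B cell markers, 1110 CPM, but only 5.58 CPM of Cxcl13.

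Ccl21a reached its highest level in HGS2 TP3 treated replicate 2, at 152 CPM, where the other TP3 tumors stood at 9.07, 0.0230 and 1.41 CPM. The same tumor held 124 CPM of Glycam1, a mucin of high endothelial venules that carries the ligand for L-selectin. Glycam1 is 1 of 5 venule markers, which summed to 140 CPM in this tumor, so that it made up most of the sum. In every other tumor group the sum was at most 17.7 CPM. The other venule markers thus did not stand out in this tumor as Glycam1 did. Glycam1 was 10.8 CPM in TP3 treated replicate 1, 7.72 CPM in TP1 treated replicate 3 and at most 2.72 CPM in every other tumor. This tumor also had the highest Ccr7 (41.6 CPM) and Ccl19 (12.9 CPM) of all tumors, and is 1 of the 3 with most pancreas RNA. Its pancreas genes summed to 61300 CPM. The log2 fold change of Ccl21a in TP3 tumors against TP2 controls, 5.98 with all fitted tumors (SE 2.05, adjusted p = 1.0, edgeR), was -0.18 without it (adjusted p = 0.994).

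**Figure D3:**
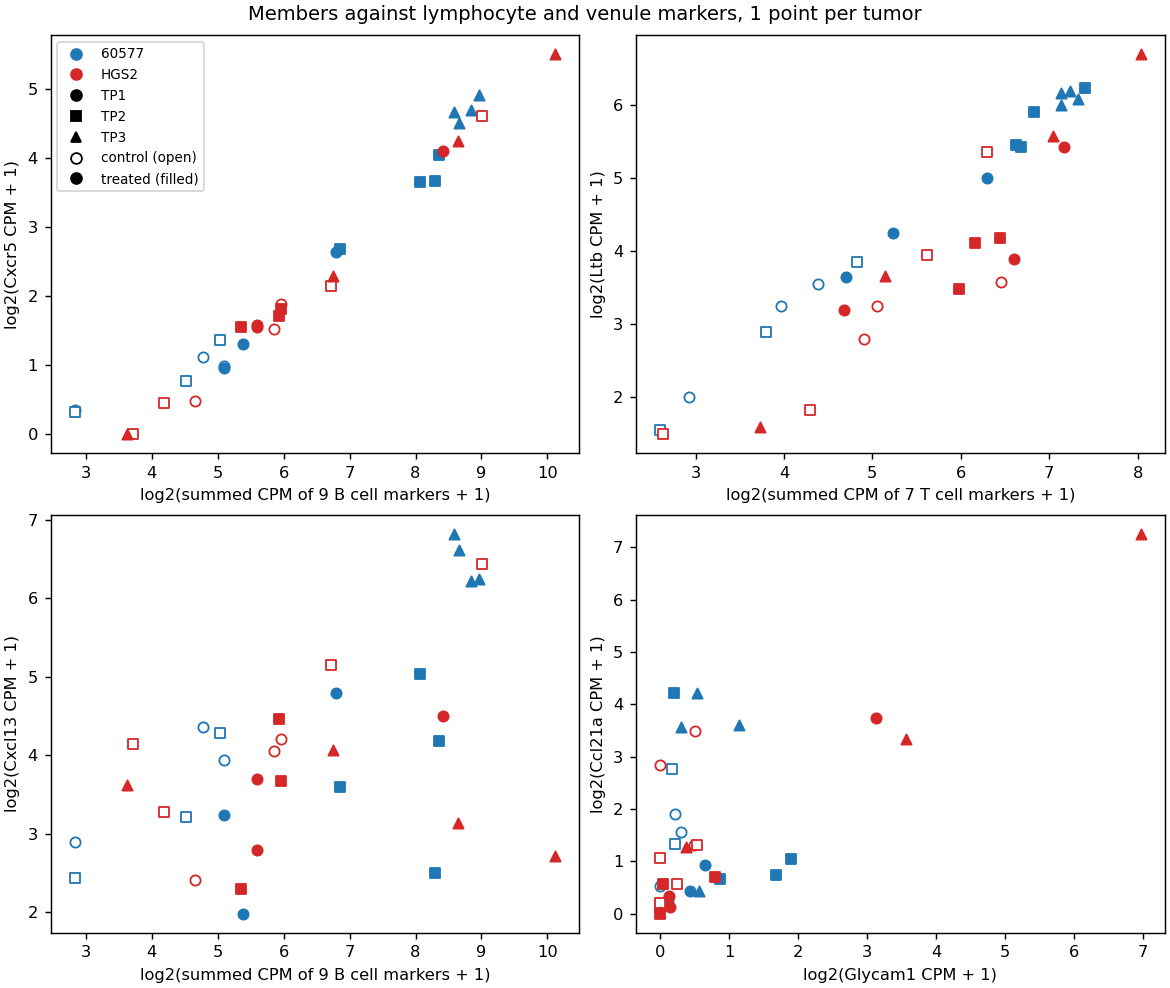
Cxcr5 and Cxcl13 against the summed CPM of 9 B cell markers, Ltb against 7 T cell markers and Ccl21a against Glycam1, as log2(CPM + 1), 1 point per tumor (blue 60577, red HGS2; circle TP1, square TP2, triangle TP3; open control, filled treated). Ltb lies close to a line in 60577, at group means of 45.0 to 52.5 CPM per 100 CPM of T cell markers, and lower with more scatter in HGS2, Cxcl13 scatters widely, and 1 HGS2 tumor with 152 CPM of Ccl21a and 124 CPM of Glycam1 stands alone.

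Whether the response differed between the models was tested as an interaction in a joint fit of 33 tumors. At TP1 none of the 9 genes was called (background 1.45% of genes, either direction), and limma-voom and DESeq2 called none. None of the 9 had an unadjusted p below 0.05, against 18.8% of all genes. At TP2 none was called either (background 6.9%). An unadjusted p below 0.05 was reached by 5 of the 9 and by 29.0% of all genes. limma-voom called none and DESeq2 called Cxcr5 and Ccl19. The HGS2 response minus that of 60577 was -5.31 on the log2 scale for Cxcr5 (SE 1.94, adjusted p = 0.0735, edgeR), and -7.24 for Ccl19 (SE 2.45, adjusted p = 0.0572). It was -2.92 for Ltb (SE 1.22, adjusted p = 0.115, edgeR) and -3.32 for Lta (SE 1.49, adjusted p = 0.141). For Ltbr the HGS2 response was higher by 0.64 (SE 0.20, adjusted p = 0.0404, edgeR), as Ltbr fell in 60577 and moved by -0.01 in HGS2. Of the 9 genes, Ltbr alone had an adjusted p below 0.05 in this edgeR test, at less than the fold needed for a call.

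Among controls, 2 of the 9 genes were higher in HGS2 than in 60577 (background 13.2%). Ccl19 was higher by 3.91 (SE 1.35, adjusted p = 0.0178, edgeR), with 0.0743 to 1.37 CPM in the 7 HGS2 controls and 0 to 0.118 CPM in the 6 of 60577. limma-voom did not call it (3.18, adjusted p = 0.0927). Tnfsf13b was higher by 1.03 (SE 0.28, adjusted p = 0.00358, edgeR), with 6.22 to 17.5 CPM in HGS2 and 2.48 to 9.95 CPM in 60577, and by 0.84 to 0.98, under the fold limit, when 1 of 6 controls was left out. The difference for Ltbr was -0.25 (SE 0.10, adjusted p = 0.0443, edgeR), which is not a call. Cell line, host strain and day after injection differ together between the models and cannot be told apart.

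The cultures show which of the 9 genes the cancer cells express without host cells. Their values were scaled apart from the tumors and were not tested against them. Cxcr5, Ccl19 and Ccl21a had 0 counts in all 4 cultures, and Lta had 0 or 1, at totals of 31633121 counts or more. Ltbr was well expressed, at 70.6 and 78.6 CPM in 60577 and 100 and 92.4 CPM in HGS2, with a difference of 0.37 (SE 0.17, adjusted p = 0.192, edgeR). Tnfsf13b stood at 0.431 to 1.08 CPM, below all tumors. Cxcl13 stood at 0.548 and 0.449 CPM in 60577 and at 6.20 and 0.593 CPM in HGS2, where 1 culture lay close to those of 60577 (2.76, SE 1.1, adjusted p = 0.140, edgeR). DESeq2 called it, with adjusted p = 0.0345.

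Ccr7 and Ltb separated the lines, 2 of the 5 members tested in cultures, both lower in HGS2 (background 8.38%). Ccr7 stood at 8.22 and 11.4 CPM in 60577, with 300 and 508 counts, and at 0.0337 and 0.135 CPM in HGS2, with 1 and 5 counts. The difference was -6.74 (SE 0.59, adjusted p = 0.00402, edgeR). The 60577 cultures thus lie within the range of the 60577 control tumors, 4.33 to 12.3 CPM, for a gene usually read as a mark of T cells and dendritic cells. T cell markers summed to at most 0.110 CPM in the same cultures. Ltb was low, with 20 and 44 counts in 60577 and 0 and 1 in HGS2 (-5.41, SE 1.14, adjusted p = 0.0306, edgeR), a call lost without either 60577 culture (adjusted p = 0.0955 and 0.212, edgeR).

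**Figure D4:**
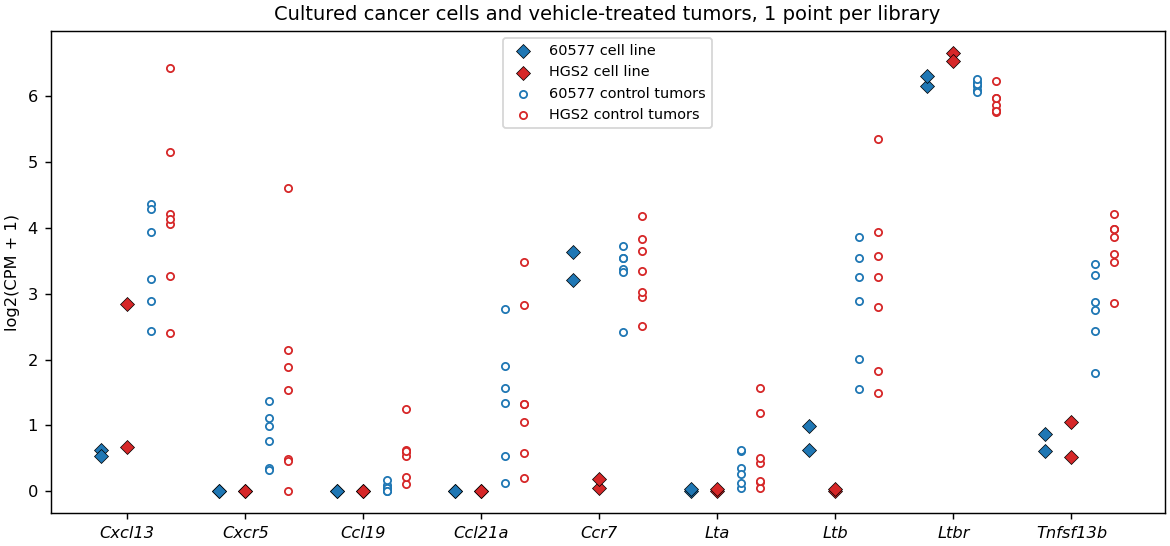
Level of the 9 genes, as log2(CPM + 1), in the cultures (diamonds, 2 per line) and in vehicle-treated tumors (open circles), blue for 60577 and red for HGS2. Ltbr is high in all libraries, Ccr7 is present in 60577 cultures and near 0 in HGS2 cultures, and Cxcr5, Ccl19, Ccl21a and Lta lie at or near 0 in all 4 cultures.

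Other genes of these pathways were counted as lists, chosen with earlier results of these data known. Of 23 ligands, receptors and signal carriers of the lymphotoxin and BAFF pathways, 21 were tested, of which 3 were called higher in 60577 at TP1, 8 at TP2 and 4 at TP3, and none lower, where 9.65%, 14.8% and 14.2% of all genes were called higher. The counts at TP1 and TP3 are near these shares. Those called at TP2 included the BAFF receptor gene Tnfrsf13c, with a log2 fold change of 2.69 at TP2 (SE 0.49, adjusted p = 0.000337, edgeR), the receptor gene Cd40 with 2.19 (SE 0.37, adjusted p = 0.000200) and the cytokine gene Tnf with 1.76 (SE 0.43, adjusted p = 0.00288). The median over the list was 0.27, 0.42 and 0.31, against 0.00, 0.03 and 0.00 over all genes. Of 15 tested genes of lymphocyte traffic, 7 were called higher at TP1, 7 at TP2 and 8 at TP3, with 1 lower at TP2, and the list's median was 1.12, 0.88 and 1.61. Those higher at TP2 included Il7, a survival factor for lymphocytes, with 4.18 (SE 0.78, adjusted p = 0.000462), its receptor Il7r with 2.59 (SE 0.29, adjusted p = 9.08e-06) and the chemokine receptor Ccr6 with 3.29 (SE 0.66, adjusted p = 0.000708, all edgeR).

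Markers of the cells that build lymphoid aggregates gave mixed counts in 60577 at TP2, where 14.8% of all genes were called higher and 9.61% lower. All 7 T cell markers were called higher, as were 5 of 7 dendritic cell markers. Of 4 tested markers of follicular helper T cells, 2 were called higher (Icos, 2.96, and Sh2d1a, 3.42). Of 8 markers of follicular dendritic and reticular cells, 4 were called higher and 2 lower. The higher ones included Cr2 (4.56) and Fcer2a (3.81), which B cells express as well and which are also in the B cell list. Of 3 tested markers of high endothelial venules, 1 was called (Fut7, 1.90, SE 0.51, adjusted p = 0.00540, edgeR), too few to set against the background. The summed level of the 5 venule markers, 5.37 to 12.7 CPM in TP2 controls and 10.2 to 15.7 CPM in TP2 treated tumors, overlapped. Adipocyte markers also rose, from 0.994 to 6.45 CPM in TP2 controls to 69.2 to 491 CPM at TP2 and 963 to 1370 CPM at TP3, with all 5 called higher at both times. These markers rose again from TP2 to TP3, as Cxcl13 did, with all 5 called. Also called higher between these times were 5 of 6 pancreas, 3 of 6 macrophage, 1 of 4 lymphatic endothelium and 1 of 6 fibroblast markers (background 3.47%). Of 5 mesothelium markers, 1 was called lower. The part of any of these cells in the level of Cxcl13 was not tested. Of the other lists at TP2, 3 of 4 neutrophil, 5 of 5 tumor epithelium and 6 of 6 pancreas markers were called lower. So were 1 of 4 lymphatic endothelium and 1 of 5 mesothelium markers, while 1 of 6 fibroblast markers was called higher, and none of 6 macrophage or 4 endothelial markers was called. Some listed markers were also expressed in the 60577 cultures, without host cells. Counts summed over both cultures were 44713 for Clu, 25665 for Pdpn, 29826 for Flt4 and 158219 for Upk3b. Those of Cr2, Il7, Prox1 and Lyve1 were 2, 11, 30 and 58. The part of the cancer cells in these list counts was not tested. In HGS2 no member of any list was called in any comparison, where 0 of 16241 genes were called (0%).

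The genes most like each member over the 17 tumors of 60577, by Pearson's r of log2 CPM, were B cell genes for Cxcr5 (Bank1, Cd79b and Blk, each 0.99) and lymphocyte genes for Ltb (Gimap7 at 1.00, Arhgef6 and P2ry10 at 0.99). For Ccl21a they were Mmrn1 (0.90), Prox1 (0.82) and Reln (0.81), which mark lymphatic endothelium. For Cxcl13 they were Akt2 (0.94), Sptbn1 and Naalad2 (each 0.93), and in 16 HGS2 tumors the same pairs stood at 0.06, 0.15 and 0.03. For Tnfsf13b they were Cd3g (0.98), Cd27 and Gimap4 (each 0.97), and for Lta Fcrl1 (0.98), Prkcq and Ms4a4b (each 0.97). For Ccl19 they were Slc7a10, Cd28 and Rab30 (each 0.96), for Ccr7 Coro2a (0.92), Chadl (0.90) and H2-M2 (0.89), and for Ltbr the proteasome genes Psmd1 and Psmd2 with Snx12 (each 0.97). The tumors share the groups, so these values describe a common pattern over treatment and time. Within groups, r was 0.97 for Cxcr5 with Bank1 and 0.91 for Ccl21a with Mmrn1.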

How the data were processed

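Bulk RNA of 34 omental tumors and 4 cell line cultures was analyzed. According to the methods and the submitters' processing notes, ribosomal RNA was depleted, strand-specific libraries were sequenced from paired ends, reads were trimmed (Trim Galore 0.6.5) and mapped to GRCm38 (STAR 2.7.0f), and RSEM estimated gene counts. Whether the counting used strand is not given in the sources used here. The authors deposited expected counts for 55487 genes, not normalized. Gene names and positions are from GENCODE M21 (55227 IDs matched).

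Counts were rounded. A gene entered the tests if 25% or more of 33 tumors reached 1 CPM (16241 genes; in cultures, by the same limits, 13742). TMM scaling and the quasi-likelihood test came from edgeR 4.0.16 (R 4.3.3), with the 5 groups of a model together. SE is the log2 fold change over the square root of F. For likeness, 2 was the prior count of the log2 CPM. Named genes are the 9 members, up to 3 called genes with the largest change at 60577 TP2 per list, and the 3 most like each member. Glycam1 and Bcl9l were named after their values were seen. Alternatives were limma-voom 3.58.1, DESeq2 1.42.0, its size factors, no filter, a replicate block, a length and GC offset, other sets of tumors, summed copies and a prior count of 0.5. Python 3.11.15 made summaries. The members and lists were chosen with earlier results of these data known. The labels do not name the mouse of each tumor, while the paper describes the replicates as mice. The p-values thus measure the spread between these samples, taken as separate mice. In 44 replicate pairs, counts differed by more than counting error (chi-square per degree of freedom from 9.38).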

Additional observations from a re-analysis of the deposited data

Results flagged for a closer look

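Each of the 9 genes was tested in each of the 4 groups of 4 tumors by Dixon's test, on log2 CPM. In 3 of these 36 tests on the same tumors a value stood apart from the rest of its group, where chance gives about 1 in 20. These were Ccl21a in 60577 TP2 treated replicate 2 (17.5 CPM, high), Ccl21a in 60577 TP3 treated replicate 3 (0.355 CPM, low) and Lta in 60577 TP2 treated replicate 2 (1.45 CPM, low). Without 60577 TP2 treated replicate 2, the log2 fold change of Ccl21a from TP2 to TP3 treated tumors was 3.67 (adjusted p = 0.0311, edgeR), against 1.02 with it (adjusted p = 0.497, edgeR).

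The response of Ltbr at TP2 differed between the models by 0.64 on the log2 scale (adjusted p = 0.0404, interaction term of edgeR).

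HGS2 TP3 treated replicate 1, which was in no fit, held more of 4 of the genes than any HGS2 control. Cxcr5 stood at 44.6 CPM (highest control 23.4), Ccl19 at 11.6 CPM (1.37), Ltb at 103 CPM (40.0) and Tnfsf13b at 21.2 CPM (17.5).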

How the results depend on the processing

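Counts of members called in 60577 at TP2 and at TP3 against controls were 6 under each of 8 other settings and with each of 17 tumors left out. At TP1 the 3 calls became 1 with limma-voom, 1 with the replicate block, 2 with the block and the length and GC offset (without Ltb) and 0 with only the compared groups, and 0 to 4 with a tumor left out. Ccl19 lost its TP1 call without any TP1 control or without treated replicate 2 (adjusted p = 0.0635 to 0.354), Lta without TP1 control 1 or treated 2 or 3 (0.0580 to 0.0778). Ltb lost it under 12 of 17 omissions, among them every TP3 tumor (0.0535 to 0.207, all edgeR). From TP1 to TP2 treated tumors the 3 calls became 1 without a filter, 5 with DESeq2 (with Ccl21a and Ltb), 0 with the replicate block, 1 with the block and the length and GC offset, 0 with only the compared groups and 0 to 5 with a tumor left out. Lta lost this call under 10 omissions, Ccr7 under 12 and Cxcr5 under 4 (TP1 treated 1 or 3, TP2 treated 3 or 4). From TP2 to TP3 treated tumors the count was 2 in place of 1 with limma-voom (Cxcr5), with the offset, without or with the block (Ccr7, -1.19 and -1.20), and with only the compared groups (Cxcr5), and 1 to 2 with a tumor left out. In HGS2, counts stayed at 0 except for 1 with DESeq2 from TP2 to TP3 treated tumors. For the models' responses at TP2 the count of 0 became 2 with DESeq2, 1 with only the compared groups (Ccl19), 3 without the 3 tumors richest in pancreas RNA (a setting chosen after seeing the data; Cxcr5, Ccl19 and Ltb) and 0 to 2 with a tumor left out. Between controls the 2 calls became 1 with limma-voom (Ccl19 lost), 0 with the block (Ccl19 2.49, adjusted p = 0.447, edgeR) and 0 with the block and offset, and 1 to 3 with a tumor left out; Tnfsf13b fell to 0.84 without 60577 TP2 control 2. Between cultures the 2 calls became 1 to 3 with a culture left out, when Ltb lost its call without either 60577 culture. No log2 fold change of a called gene reversed. The causes of these shifts were not tested.

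The replicate numbers are not stated to pair tumors, and same-numbered tumors of different groups did not deviate together (mean r of -0.04 in 60577 and -0.03 in HGS2, against 0.01 for other numbers in each). The block moved no count other than those named. Low counts limit Lta and Ccl19 in controls. With a prior count of 0.5, 20 of the 27 genes named as most like a member were again among the top 3.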
